A study of Drosophila melanogaster with 6 samples.

Results

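The centromere-near ends of chromosome arms 2L, 3L and 3R carried 873 of the 13569 peaks deposited for ROW and BEAF-32 in Drosophila melanogaster S2 cells. Members were chosen by position alone, as every peak whose summit lay beyond 20000000 on 2L, beyond 22000000 on 3L or below 2500000 on 3R of the dm3 genome build. ROW contributed 578 of its 8788 peaks and BEAF-32 contributed 295 of its 4781. The other 4537 ROW and 2472 BEAF-32 peaks of the same 3 arms served as the comparison. S2 cells are a cultured line of embryonic origin with traits of macrophages. Chromatin from sonicated nuclei was immunoprecipitated with antibody against ROW in 3 samples and against BEAF-32 in 3 samples, without any treatment, genotype or time named in the labels. All titles carry the tag con. Groups follow the titles, because the number in the labelled antibody of the BEAF-32 samples climbs from sample to sample. Each antibody has a single peak list for its 3 samples, which leaves no value per sample, no spread between samples and an unknown read depth.

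Chromosome arms of Drosophila run from gene-rich euchromatin into pericentromeric heterochromatin, which is rich in transposon copies and in histone H3 methylated at lysine 9, and is bound by the heterochromatin protein HP1a. ROW is a zinc-finger protein found in a complex with HP1c, an HP1 relative that sits mostly at active genes in euchromatin. BEAF-32 marks boundary elements as an insulator factor, many of them close to promoters of housekeeping genes. Coordinates on the left arms count towards the centromere and those on 3R count away from it. Where the chromatin transition lies in these cells was not measured in the peak lists.

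Peaks of both proteins were weaker in the ends of 2L and 3L than in the rest of those arms, and in the end of 3R they were close to the rest of the arm. Strength is the fold enrichment that the authors deposited for each peak, the signal at the summit over the local background, and it is read here within a list only. The median ROW peak was 2.91-fold in the end of 2L (95% interval 2.55 to 3.22) and 4.18-fold in the rest of that arm (3.97 to 4.59). On 3L the median ROW peak was 2.55-fold in the end (2.34 to 2.97) and 4.19-fold in the rest (3.95 to 4.42). On 3R the medians were 4.42-fold in the end (3.95 to 5.53) and 4.39-fold in the rest (4.12 to 4.67). The ROW intervals of end and rest thus stood apart on 2L and 3L and overlapped on 3R. These intervals come from the order of the values and cover counting error only, since peaks of a list are not independent replicates.

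BEAF-32 peaks were weaker towards the centromere in the same arms. The median BEAF-32 peak was 4.88-fold in the end of 2L (3.91 to 5.98) against 8.05-fold in the rest (7.07 to 9.41). It was 3.97-fold in the end of 3L (2.99 to 5.29) against 7.19-fold in the rest (6.40 to 8.28). In the end of 3R it was 7.13-fold (5.52 to 11.2) against 8.74-fold (7.30 to 9.72), with overlapping intervals. The log2 difference of end minus rest averaged −0.62 ± 0.29 (SD, n = 3 arms) for BEAF-32 and was below 0 on all 3 arms. For ROW it averaged −0.41 ± 0.38 (SD, n = 3 arms) and was below 0 on 2L and 3L. With the arm as the unit, a two-sided exact sign-flip permutation test gave p = 0.25 for BEAF-32, which is the smallest p that 3 arms allow, and p = 0.5 for ROW. No difference between arm ends and rest can therefore pass a threshold in this design, and the values below are descriptions.

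**Figure D1:**
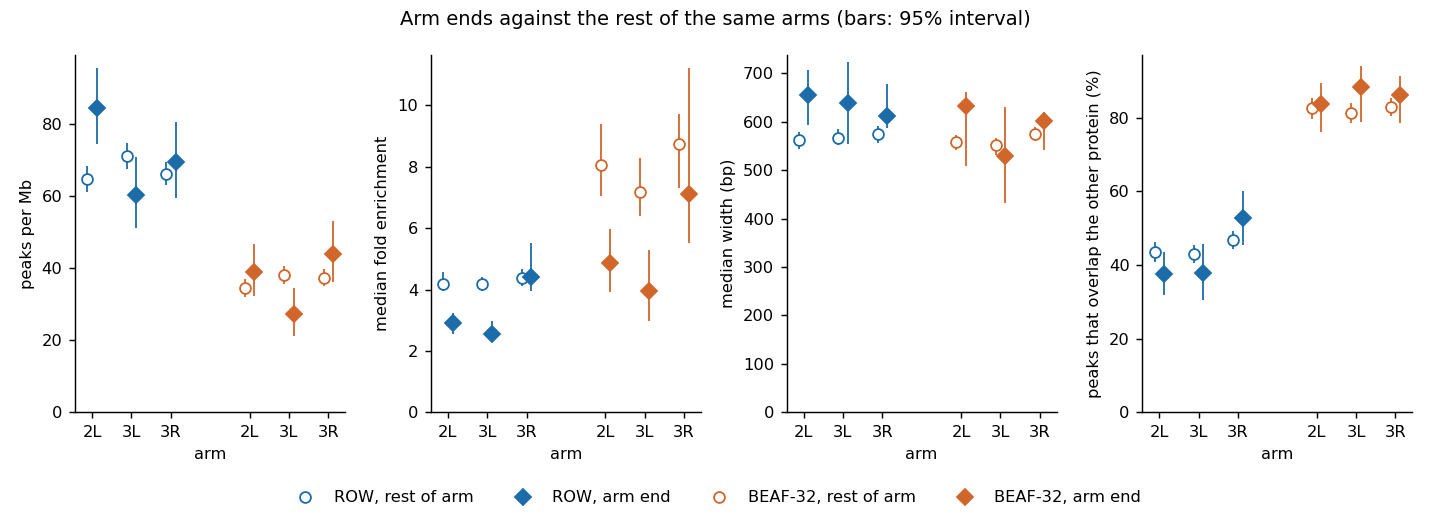
Peak density, median fold enrichment, median width and share of overlapping peaks for ROW (blue) and BEAF-32 (orange) in the end (filled diamonds) and the rest (open circles) of arms 2L, 3L and 3R; bars are 95% intervals that cover counting error only. Median ROW strength was 2.91-fold and 2.55-fold in the ends of 2L and 3L and 4.42-fold in the end of 3R.

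The ends of 2L and 3L held many weak peaks of both proteins. ROW peaks under 3-fold stood at 44.7 per Mb in the end of 2L and 20.7 per Mb in the rest of that arm, a ratio of 2.16 (95% exact binomial interval 1.76 to 2.63). On 3L they stood at 35.5 per Mb against 21.9 per Mb, a ratio of 1.62 (1.28 to 2.04). On 3R they stood at 18.6 per Mb against 20.2 per Mb, a ratio of 0.92 (0.66 to 1.24). These intervals too cover counting error only. By them, weak ROW peaks were denser than in the rest of the arm on 2L and 3L, while the interval for 3R included 1. Of all ROW peaks on the 3 arms 32.8% were under 3-fold, and among the members the share was 53.0% on 2L, 58.8% on 3L and 26.7% on 3R. Weak BEAF-32 peaks, which made up 16.0% of BEAF-32 peaks on the 3 arms, were denser in the same ends. Their ratio was 2.32 on 2L (1.52 to 3.45) and 1.76 on 3L (1.11 to 2.70). On 3R it was 0.55, with an interval from 0.23 to 1.12.

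Peaks of 8-fold and above were sparse in the end of 3L. Those of at least 8-fold stood at 6.32 per Mb for ROW in the end of 3L and 17.5 per Mb in its rest, a ratio of 0.36 (0.20 to 0.59). For BEAF-32 they stood at 5.13 per Mb against 17.9 per Mb, a ratio of 0.29 (0.15 to 0.50). At the same threshold the ratios on 2L were 0.80 for ROW (0.56 to 1.10) and 0.79 for BEAF-32 (0.56 to 1.10), so a lower density there was within counting error. On 3R the ratios at 8-fold and above were 1.07 for ROW (0.78 to 1.44) and 1.09 for BEAF-32 (0.80 to 1.46). ROW peaks of at least 16-fold were few, with 2 in the end of 2L, a ratio of 0.21 (0.024 to 0.77), 5 in that of 3L, a ratio of 0.49 (0.16 to 1.19), and 5 in that of 3R, a ratio of 0.55 (0.17 to 1.33). The interval for 2L lay below 1 and those for 3L and 3R did not. On the 3 arms 5.04% of ROW and 30.5% of BEAF-32 peaks reached 16-fold. Among the members they were 12 ROW peaks, or 2.08% (1.19 to 3.59), and 69 BEAF-32 peaks, or 23.4% (18.9 to 28.5). Of those BEAF-32 peaks 39 lay in the end of 3R, where they formed 35.8% of the peaks, against 11.6% in the end of 3L.

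With more weak and fewer strong peaks, the number of all peaks per Mb in the 3 ends together was close to that of the rest. Lengths are those of the stretch between the first and the last peak of either list, which gave 8.01 Mb of ends and 67.3 Mb of rest. ROW stood at 72.2 peaks per Mb in the ends and 67.4 in the rest, a ratio of 1.07 (0.98 to 1.17), and BEAF-32 at 36.9 and 36.7, a ratio of 1.00 (0.89 to 1.13). The arms went different ways. On 2L the ROW density was 84.5 per Mb in the end against 64.7 per Mb, a ratio of 1.31 (1.14 to 1.50). On 3L the BEAF-32 density was 27.3 per Mb in the end against 38.0 per Mb, a ratio of 0.72 (0.55 to 0.92). The other ratios were 0.85 for ROW on 3L, 1.05 for ROW on 3R, 1.14 for BEAF-32 on 2L and 1.18 for BEAF-32 on 3R, each with an interval that included 1. With a −log10 q of 10 or more required, the ROW ratio over the 3 ends was 0.89 (0.80 to 0.99), below 1 instead of above it. With peaks of at least 4-fold it was 0.82 for ROW and 0.86 for BEAF-32.

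Along 2L the lower strength began about 1 Mb inside the limit. In the outer 2 bins of 500 kb, from 20 to 21 Mb, the median ROW peak was 5.98-fold and 6.68-fold, while the bin medians further out on the arm ran from 2.42-fold to 8.93-fold. It was 3.29-fold from 21.0 to 21.5 Mb and then 2.38-fold, 2.61-fold and 2.33-fold in the 3 bins up to the last peak. ROW counts were highest where the medians were low. They were 24, 30, 45, 56, 60 and 38 peaks in these 6 bins in order towards the centromere, against a median of 31 in the 40 bins of the rest of 2L, where they ran from 5 to 71. The 3 innermost bins had ROW medians below 3-fold, as did 4 of the 40 bins of the rest. BEAF-32 medians were 8.97-fold and 10.2-fold in the outer 2 bins and 5.18-fold, 2.86-fold, 4.24-fold and 4.56-fold in the next 4. The innermost bin of 2L kept 38 ROW peaks but 9 BEAF-32 peaks. Of those 38 ROW peaks 7 overlapped BEAF-32, whereas 23 of 60 did so in the neighbouring bin and 44.3% of ROW peaks over the 3 whole arms.

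On 3L the lower ROW strength began with the second bin of the end. From 22.0 to 22.5 Mb there were 14 ROW peaks with a median of 7.18-fold. From 22.5 to 23.0 Mb there were 42 with a median of 2.62-fold. The next bins held 53, 30 and 12 ROW peaks, with medians of 2.30-fold, 2.58-fold and 2.38-fold. None of the 44 bins in the rest of 3L had a ROW median below 3-fold; their lowest was 3.19-fold. BEAF-32 counts on 3L were 14, 18 and 22 peaks in the bins from 22.0 to 23.5 Mb. Their BEAF-32 medians were 3.52-fold, 5.13-fold and 3.80-fold, so the low value in the first bin had no counterpart in ROW. In the next bins BEAF-32 had 10 and 4 peaks, with medians of 3.31-fold in both. The last stretch, from 24.5 Mb on, held 2 ROW peaks with a median of 4.13-fold and 1 BEAF-32 peak. In the rest of 3L the bins had a median of 34 ROW peaks (range 12 to 73) and 18 BEAF-32 peaks (2 to 47). From 23.5 to 24.5 Mb both proteins were therefore below the median of the rest. ROW was only slightly below it up to 24.0 Mb and at the lowest count of the rest after that. Over the innermost Mb of 2L, ROW counts were above the median of the rest of that arm.

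The end of 3R resembled the rest of its arm in strength, and its bin medians lay within the range of that rest. In the rest of 3R bin medians ran from 2.57-fold to 8.90-fold for ROW and from 3.74-fold to 21.5-fold for BEAF-32. Counted towards the centromere, ROW medians in the end were 4.91-fold, 6.32-fold, 5.72-fold, 4.78-fold and 3.50-fold. BEAF-32 medians there were 9.76-fold, 8.70-fold, 6.82-fold, 5.47-fold and 6.33-fold. ROW counts were 24, 21, 51, 26 and 50, and BEAF-32 counts 12, 13, 40, 16 and 28. A crowded stretch from 1.0 to 1.5 Mb and another in the innermost bin were common to both proteins. Over single peaks of an end, Spearman's rho between distance from the innermost peak and ROW fold enrichment was 0.37 on 2L (n = 253), 0.23 on 3L (n = 153) and 0.16 on 3R (n = 172). For BEAF-32 it was 0.35 (n = 117), 0.18 (n = 69) and 0.10 (n = 109). These correlations describe peaks that share libraries and neighbourhoods, and no p is given for them.

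**Figure D2:**
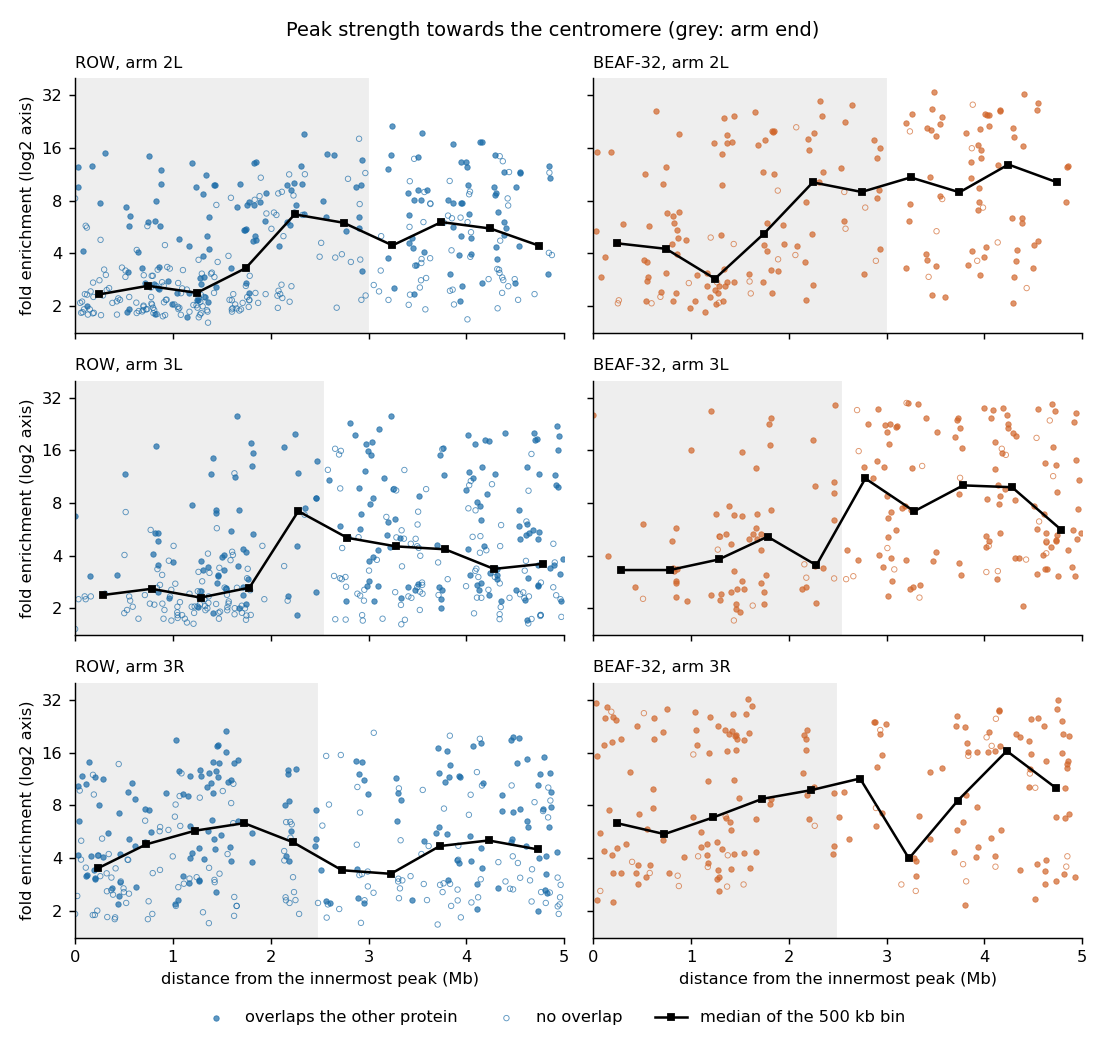
Fold enrichment of each peak (log2 axis) against its distance in Mb from the innermost peak of the arm, for ROW (left) and BEAF-32 (right); filled points overlap a peak of the other protein, black squares are medians of 500 kb bins and grey marks the arm end. On 2L and 3L the ROW medians near the centromere lie between 2.30-fold and 2.62-fold, while on 3R the lowest is 3.50-fold; the last stretch of 3L beyond 24.5 Mb, with 2 ROW peaks and a median of 4.13-fold, has no square.

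**Figure D3:**
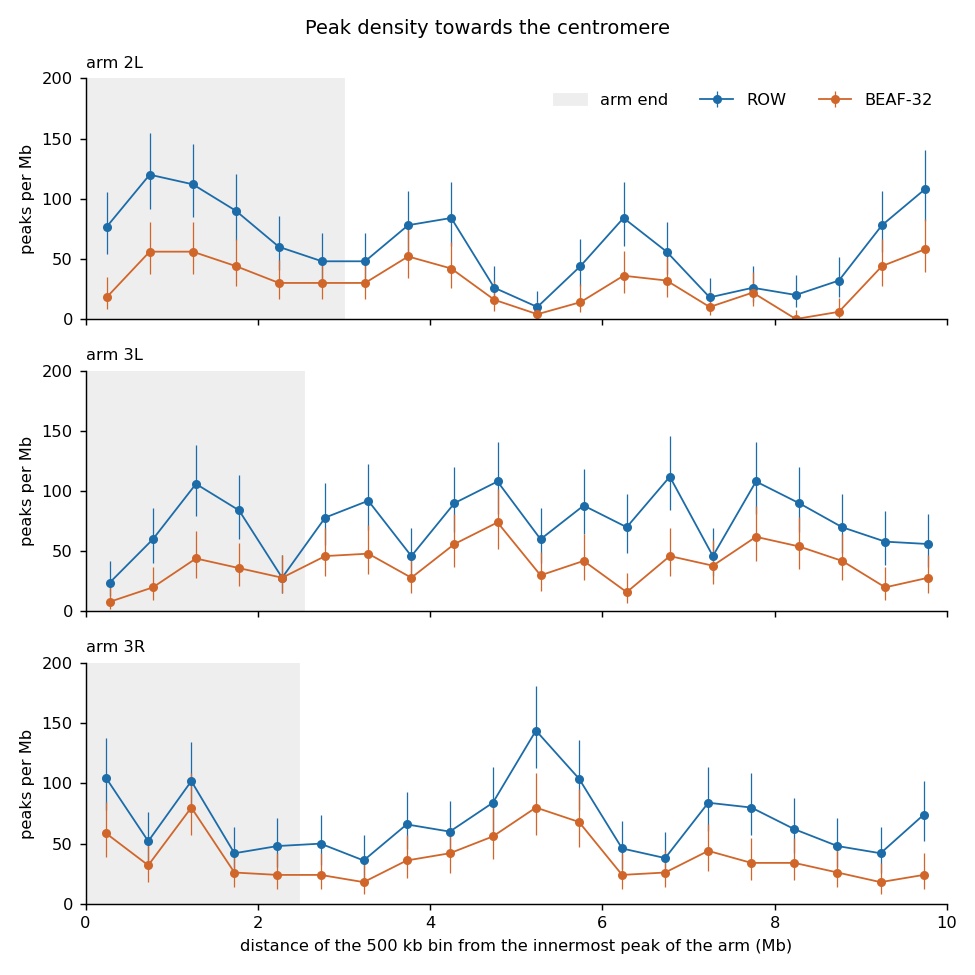
ROW and BEAF-32 peaks per Mb in 500 kb bins against the distance of the bin from the innermost peak in Mb, with exact 95% Poisson intervals; grey marks the arm end and a last stretch of 3L under 0.4 Mb is left out. ROW stands at up to 120.0 peaks per Mb in the end of 2L and at 24.0 in the innermost full bin of 3L.

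The median ROW peak was wider in the end of each arm, and over the 3 arms pooled this held at like strength below 16-fold. The median width of ROW peaks was 655 bp in the end of 2L against 563 bp in its rest, 639 bp against 567 bp on 3L and 612 bp against 575 bp on 3R. The intervals stood apart on 2L (594 to 706 against 543 to 578). They overlapped on 3L (554 to 724 against 552 to 585) and 3R (587 to 678 against 556 to 591). The difference of end minus rest averaged 67 ± 27.8 bp (SD, n = 3 arms) and was above 0 on all 3 arms, with p = 0.25 in the two-sided exact sign-flip permutation test. Wider peaks tended to be stronger ones, with Spearman's rho between fold and width of ROW members from 0.44 on 2L to 0.57 on 3R, yet the members were weaker. Over the 3 arms pooled, ROW peaks of 2.5 to 4-fold had a median width of 612 bp in the ends (560 to 737) and 440 bp in the rest (429 to 451). At 4 to 8-fold they had 773.5 bp (713 to 822) and 616 bp (600 to 629). On single arms the intervals at 4 to 8-fold stood apart on 2L and 3L and overlapped on 3R (588 to 805 against 584 to 629). Below 2.5-fold the pooled medians were 458.5 bp and 368 bp. At 16-fold and above they were 680.5 bp and 671 bp, so the strongest class showed no separation.

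Very broad ROW peaks lay in the ends of 2L and 3L. Of the members, 13 ROW peaks exceeded 2000 bp, 8 on 2L, 5 on 3L and 0 of 172 on 3R, which allows a share of up to 1.74%. They were 2.25% of the ROW members, against 0.64% of the ROW peaks in the rest. The widest on 2L, from 22678855 to 22681620, spanned 2766 bp at 3.01-fold and had no BEAF-32 summit within 10000 bp. The widest on 3L, from 23680835 to 23683494, spanned 2660 bp at 3.54-fold and had a BEAF-32 summit 157 bp from its own. BEAF-32 widths did not differ in a common direction. Their medians were 632 bp in the end of 2L against 558 bp in its rest, 529 bp against 552 bp on 3L and 601 bp against 575 bp on 3R. At 4 to 8-fold BEAF-32 peaks were 616 bp wide in the ends (502 to 668) and 469 bp in the rest (455 to 482). ROW peaks together covered 6.53% of the end of 2L and 4.18% of its rest, 4.72% and 4.56% on 3L, and 4.78% and 4.25% on 3R.

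At a given fold enrichment the statistical support of the peaks was similar in ends and rest. The deposited −log10 q grows with both the fold enrichment and the amount of signal, so it was compared within classes of fold. ROW peaks of 4 to 8-fold had a median −log10 q of 79.6 in the ends (69.1 to 93.1) and 78.9 in the rest (74.5 to 83.2). BEAF-32 peaks of that class had 45.0 (37.8 to 61.4) and 44.4 (40.5 to 48.1). Below 2.5-fold ROW peaks had 5.33 (4.88 to 5.52) and 5.84 (5.64 to 6.08), intervals that do not overlap.

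Sharing between the proteins followed strength. A peak is called shared here when its interval overlaps a peak of the other list by at least 1 bp. On the 3 whole arms the shared part was 44.3% for ROW and 82.8% for BEAF-32. In the ends 244 of 578 ROW peaks were shared, 42.2% (38.3 to 46.3), against 44.6% in the rest. Of the BEAF-32 members 253 of 295 were shared, 85.8% (81.3 to 89.3), against 82.4% in the rest. By this definition and over the ends as a whole, neither share was separable from that of the rest. By arm, the ROW share was 37.5% in the end of 2L against 43.6%, 37.9% in the end of 3L against 43.0% and 52.9% in the end of 3R against 46.8%. The BEAF-32 share was higher in the end on each arm, at 83.8%, 88.4% and 86.2% against 82.7%, 81.4% and 83.0% in order of 2L, 3L and 3R, a mean of 3.74 ± 2.99 percentage points (SD, n = 3 arms; two-sided exact sign-flip permutation p = 0.25). For BEAF-32 the direction turned under stricter definitions. Over the 3 arms, end minus rest was 3.36 percentage points for BEAF-32 by overlap of any length. It was −8.60 (−14.3 to −3.15) when the overlap had to cover 50% of both intervals and −5.59 (−11.1 to 0.11) by summits at most 100 bp apart. For ROW it was −2.37 (−6.34 to 1.69), −6.73 (−10.3 to −2.86) and −4.52 (−7.69 to −0.97) in the same order. Under both stricter definitions the ROW share of the 3 ends pooled was thus lower, beyond the counting error of the ends. The arms differed by summits at most 100 bp apart. That ROW share was 18.6% in the end of 2L against 25.5% and 16.3% in the end of 3L against 25.2%. In the end of 3R it was higher, at 31.4% against 28.0%.

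Among classes of strength, pooled over the 3 arms, the intervals of the ROW share by overlap of any length stood apart only at 4 to 8-fold. ROW peaks of 4 to 8-fold were shared in 66.4% of cases in the ends (57.9 to 74.0) and 48.3% in the rest (45.4 to 51.1). On single arms the intervals of this class stood apart on 2L. They overlapped on 3L (42.5 to 77.6 against 40.3 to 49.7) and 3R (50.1 to 75.9 against 45.9 to 55.2). ROW peaks of 8 to 16-fold were shared in 74.5% (64.8 to 82.2) and 64.5% (61.4 to 67.5), with overlapping intervals. At 2.5 to 4-fold the shares were alike, 37.3% in the ends and 36.7% in the rest. Below 2.5-fold the share was 13.3% in the ends (9.39 to 18.6) and 20.8% in the rest (18.2 to 23.6), again with overlapping intervals. Across these classes the ROW share spanned a wider range in the ends than in the rest, a difference that was not tested. Wider intervals overlap more easily, so the same classes were read by summits at most 100 bp apart. At 4 to 8-fold the share was then 40.6% in the ends (32.5 to 49.3) and 28.1% in the rest (25.6 to 30.7). At 8 to 16-fold it was 35.1% and 33.8%, and at 2.5 to 4-fold it was 15.7% in the ends (10.5 to 22.8) and 25.9% in the rest (23.6 to 28.4). Below 2.5-fold it was 6.19% in the ends (3.65 to 10.30) and 12.4% in the rest (10.34 to 14.73). By summits the ROW intervals thus stood apart in both classes under 4-fold, with the lower share in the ends. They also did so at 4 to 8-fold, with the higher share in the ends. BEAF-32 peaks of 4 to 8-fold were shared in 87.5% of cases in the ends (78.5 to 93.1) and 79.1% in the rest (75.7 to 82.2). Of the 69 BEAF-32 members of at least 16-fold 66 were shared, 95.7% (88.0 to 98.5), against 90.3% in the rest (88.1 to 92.2). The intervals of ends and rest overlapped in both of these BEAF-32 classes. By summits at most 100 bp apart the pooled BEAF-32 class of at least 16-fold went the other way. It stood at 43.5% in the ends (32.4 to 55.2) and 59.4% in the rest (55.9 to 62.8). By arm it was 27.3% against 56.4% on 2L and 48.7% against 61.5% on 3R. On 3L, with 8 such peaks in the end, it was 62.5% against 59.4%. The BEAF-32 class of 4 to 8-fold stood at 52.5% and 47.4% by summits.

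**Figure D4:**
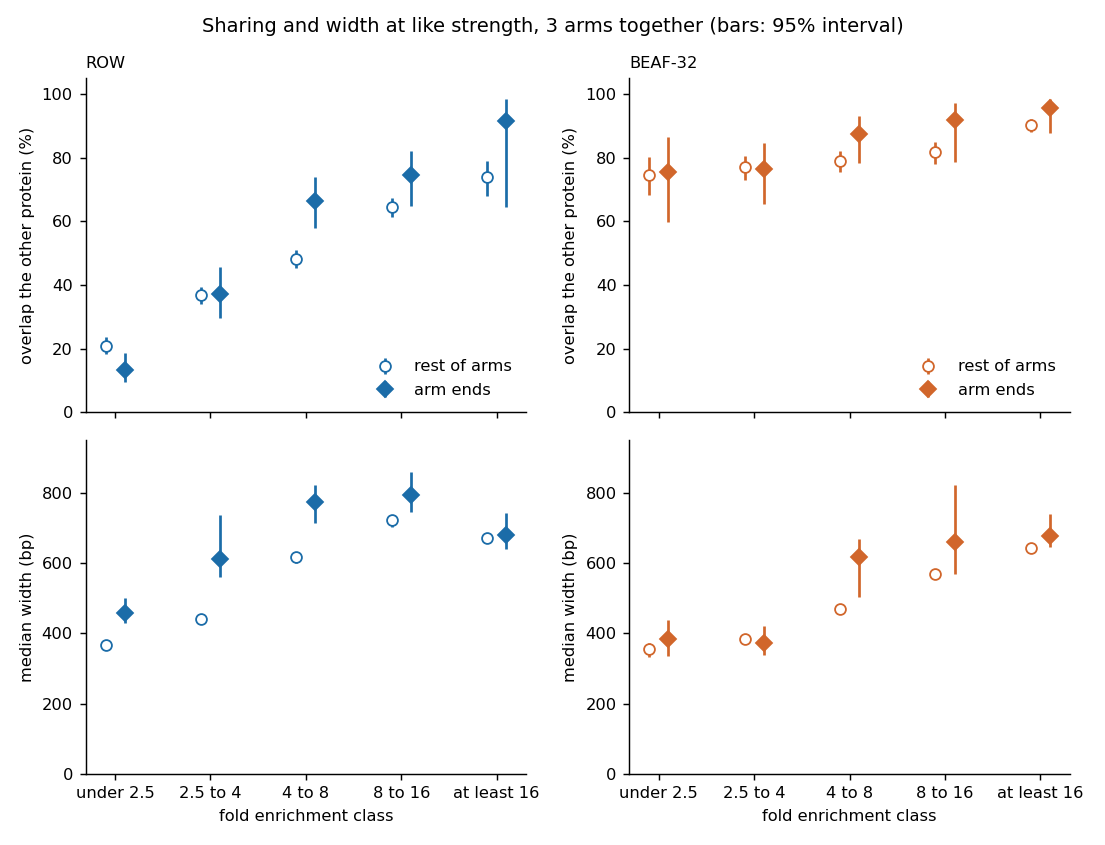
Share of peaks overlapping the other protein (top) and median width in bp (bottom) by class of fold enrichment, for ROW (left) and BEAF-32 (right), in the ends (filled diamonds) and the rest (open circles) of the 3 arms; bars are 95% intervals. At 4 to 8-fold ROW peaks overlap BEAF-32 in 66.4% of cases in the ends and 48.3% in the rest, and are wider in the ends.

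Shared and unshared ROW members were far apart in strength and width. The 244 shared ones had a median of 5.61-fold (5.05 to 6.51) and 795 bp (745 to 849). The 334 unshared ones had 2.37-fold (2.29 to 2.54) and 541.5 bp (503 to 571). In the rest of the arms the corresponding medians were 6.21-fold and 656 bp for shared and 3.44-fold and 486.5 bp for unshared ROW peaks. For strength over the 3 arms pooled, the intervals of ends and rest overlapped among shared ROW peaks and stood apart among unshared ones. On single arms the unshared intervals stood apart on 2L and 3L. They overlapped on 3R (2.72 to 3.89 in the end against 3.21 to 3.57). Unshared ROW members were a median of 8712 bp from the nearest BEAF-32 summit, and 146 of the 334, or 43.7%, had none within 10000 bp. In the rest the unshared ROW peaks had a median of 6851.5 bp, and 38.9% had none within 10000 bp. By arm that percentage was higher in the end on 3L only, at 52.6% against 37.2%. It was 43.7% against 45.8% on 2L and 33.3% against 34.9% on 3R. Unshared BEAF-32 members were few, 42 peaks with a median of 3.56-fold (2.76 to 4.14), against 5.29-fold for unshared BEAF-32 peaks in the rest.

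Where both proteins had a peak, the summits lay slightly further apart in the 3 ends pooled. Over the 254 overlapping pairs of the ends the median distance between summits was 103 bp (88 to 122), against 83 bp (79 to 86) over 2046 pairs in the rest. It was 112 bp (85 to 146) against 85 bp (79 to 92) on 2L, 120 bp (80 to 209) against 83 bp (76 to 91) on 3L and 88 bp (75 to 111) against 81 bp (73 to 86) on 3R, so within each arm the intervals overlapped. With peaks of at least 4-fold the difference over the 3 arms was 9 bp (−5 to 29) in place of 20 bp. Summits lay within 100 bp in 49.6% of the pairs in the ends (43.5 to 55.7) and 58.4% in the rest (56.2 to 60.5). The strengths of paired peaks ran more closely together in the ends of 2L and 3L. Spearman's rho of the paired fold enrichments was 0.47 over 99 pairs on 2L and 0.38 over 61 pairs on 3L. It was 0.07 over 94 pairs on 3R, and 0.12 over the pairs in the rest of the 3 arms. Pairs with both peaks under 3-fold were 13 of 99 on 2L, 8 of 61 on 3L and 0 of 94 on 3R, which allows up to 3.19%, against 3.81% in the rest. The pairs share libraries and positions, and no p is given.

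Single strong sites lay in each of the ends. The strongest ROW member lay on 3L from 22871683 to 22872341, at 25.3-fold, the ROW peak ranked 19 in its list, and its summit was 704 bp from a BEAF-32 summit. The next was on 3R from 1561913 to 1562597 at 21.3-fold, 78 bp from a BEAF-32 summit. The strongest ROW member on 2L, from 20655976 to 20656641, reached 19.2-fold with a BEAF-32 summit 7 bp away. Of the 5 strongest ROW members 2 were on 3L, 2 on 3R and 1 on 2L, and all 5 were shared. Sharing was also common among strong ROW peaks in the rest of the arms, at 74.0% of those of at least 16-fold. The strongest BEAF-32 member was on 3R from 1604684 to 1605332 at 32.4-fold, 65 bp from a ROW summit and ranked 11 in its list. Among the 20 strongest BEAF-32 members 13 were on 3R, 4 on 2L and 3 on 3L. For ROW the 20 strongest were spread as 6 on 2L, 7 on 3L and 7 on 3R.

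On the dm3 arm sequences, the peaks nearest the centromere differed by protein and arm. On 3R the innermost BEAF-32 peak, from 46349 to 46949, ranked 2 among all BEAF-32 members, at 30.9-fold, and overlapped a ROW peak. The innermost ROW peak of 3R, from 21792 to 22400, was at 1.91-fold and 24788 bp from a BEAF-32 summit. On 3L the innermost BEAF-32 peak, from 24528887 to 24529555, was at 25.6-fold, and no other BEAF-32 peak beyond 24.0 Mb exceeded 6.04-fold. Beyond it the innermost ROW peak, from 24531781 to 24532071, was at 1.52-fold. On 2L the innermost BEAF-32 peak, from 22967925 to 22968592, was at 5.35-fold with a ROW summit 19 bp away, and the innermost ROW peak, from 22994340 to 22994796, was at 8.24-fold without BEAF-32 within 10000 bp. A strong BEAF-32 site was therefore the last BEAF-32 site of the dm3 arm sequence on 3L and 3R, and a weaker one on 2L. Further BEAF-32 peaks lay on the separate heterochromatin sequences 2LHet (9), 3LHet (28) and 3RHet (16).

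Sites that ranked high for both proteins were led by ROW from 1057743 to 1058418 and BEAF-32 from 1057655 to 1058352 on 3R, at 19.0-fold and 27.3-fold with summits 125 bp apart. The next 4 were pairs on 2L around ROW 20349883 to 20350641, on 3R around 159619 to 160445, on 3L around 22058204 to 22059200 and on 3R around 1650094 to 1650740. Their ROW peaks ran from 13.9-fold to 14.6-fold and their BEAF-32 peaks from 28.2-fold to 29.4-fold. Among sites of a single protein the strongest ROW peak lay on 2L from 20091102 to 20091724 at 18.1-fold, with the nearest BEAF-32 summit 2470 bp away. It was followed by ROW peaks on 3R from 466988 to 467780 at 13.8-fold and from 1108889 to 1109676 at 12.2-fold. BEAF-32 sites alone were led by peaks on 3R from 206715 to 207290 at 27.4-fold and from 539625 to 540239 at 26.9-fold, and on 2L from 20918471 to 20919236 at 21.0-fold. These lone strong sites all lay in the end of 3R or in the outer Mb of 2L.

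The widest BEAF-32 members were on 2L from 22113291 to 22115265, spanning 1975 bp at 6.89-fold, on 3R from 1834262 to 1835724, spanning 1463 bp, and on 3L from 24020568 to 24022006, spanning 1439 bp. The widest ROW member on 3R, from 1309559 to 1311386, spanned 1828 bp at 11.8-fold. All of these overlapped the other protein.

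Peaks were unevenly spaced within the ends, and the longest gaps of both proteins largely coincided on 3L and 3R. On 3L no ROW summit lay between 22401306 and 22597590 and no BEAF-32 summit between 22401382 and 22710507, gaps of 196.3 kb and 309.1 kb. On 3R no ROW summit lay between 1835324 and 2159420 and no BEAF-32 summit between 1835354 and 2171680, gaps of 324.1 kb and 336.3 kb. The longest gaps in the end of 2L differed, 150.8 kb for ROW from 20494802 and 219.8 kb for BEAF-32 from 22471272. In the rest of the same arms the longest ROW gaps were 462.2 kb on 2L, 371.6 kb on 3L and 294.9 kb on 3R, and the longest BEAF-32 gaps 654.8 kb, 356.6 kb and 371.2 kb. The ROW gap in the end of 3R was longer than any in the rest of that arm, and the other 5 gaps were shorter than the longest in the rest of their own arm. The densest 100 kb of an end held 22 ROW summits, on 2L from 21647398 to 21745482, with a median of 2.25-fold and 10 of them shared. The densest 100 kb for BEAF-32 held 14 summits, on 3R from 1373544 to 1462757, with a median of 6.83-fold. On 2L the densest BEAF-32 stretch, 13 summits from 21624559 to 21722057, lay over that of ROW.

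Peaks on either side of the limits varied in strength. On 2L the ROW peaks just inside and outside had summits at 20024404 and 19941481, at 2.29-fold and 2.63-fold, and the BEAF-32 peaks at 20061202 and 19795910, at 4.24-fold and 22.3-fold. On 3L the ROW summits were at 22058908 and 21947726, at 14.0-fold and 12.4-fold, and the BEAF-32 summits at 22058959 and 21946250, at 29.2-fold and 2.93-fold. On 3R the ROW summits were at 2485926 and 2505071, at 5.15-fold and 2.21-fold, and the BEAF-32 summits at 2485893 and 2534720, at 4.65-fold and 6.84-fold.

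Pooled, the separate heterochromatin sequences of the same arms, 2LHet, 3LHet and 3RHet, held weaker peaks than the 3 arm ends together. They had 162 ROW peaks with a median of 2.27-fold (2.15 to 2.42) and 53 BEAF-32 peaks with a median of 2.99-fold (2.49 to 3.77). In the arm ends the medians were 3.15-fold (2.97 to 3.41) for ROW and 5.18-fold (4.56 to 5.98) for BEAF-32. For both proteins the median of each sequence was below that of the end of its arm. By arm, the ROW intervals overlapped on 2L and 3L and stood apart on 3R alone (3.95 to 5.53 against 2.097 to 2.379). The BEAF-32 intervals overlapped on 3L (2.99 to 5.29 against 2.30 to 3.51) and 3R (5.52 to 11.2 against 2.63 to 7.53). On 2L they met at 3.91. Among the ROW peaks on these sequences 47 were shared, 29.0% (22.6 to 36.4), against 42.2% in the arm ends. By sequence the share was 23.9% (15.3 to 35.3) on 3RHet against 52.9% in the end of 3R, 30.3% (21.1 to 41.3) on 3LHet against 37.9% in the end of 3L, and 8 of 19, or 42.1%, on 2LHet against 37.5% in the end of 2L. For BEAF-32 49 of 53 were shared, 92.5% (82.1 to 97.0). No ROW peak of 162 reached 16-fold, which allows a share of up to 1.85%. The low ROW medians of 2L and 3L near the centromere, down to 2.30-fold, were close to those of 2LHet (2.29-fold) and 3LHet (2.34-fold). On 3R the innermost bin stood at 3.50-fold, against 2.19-fold on 3RHet. Density on these sequences was not compared, because their lengths are not in the lists.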

How the data were processed

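Binding was measured by chromatin immunoprecipitation and sequencing in 6 samples of S2 cells, 3 per antibody, grouped by sample title. Bowtie2, SAMtools, MACS2 and deepTools, without versions or roles, and the build dm3 are named in the submitters' processing notes. The control library and whether samples were pooled are not given in the sources used here. Each list has 10 columns and no header. Column 7 as the authors deposited it was read as a fold enrichment ratio, column 9 as deposited as −log10 q, and column 10 as deposited as the summit's distance from the start. The display score the authors deposited in column 5 equals 10 times the −log10 q without decimals in every row and was not used. The smallest −log10 q was 1.47 for ROW and 1.32 for BEAF-32. Read depth is unknown.

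Coordinates are on dm3, counted from 1; limits were applied to start plus summit offset. Densities use the stretch between the outermost peaks. Intervals are 95%: exact Poisson for densities, exact conditional binomial for ratios, order-statistic for medians and Wilson for shares. Intervals of differences between ends and rest are those of the ends minus the rest value taken as fixed. They leave out the counting error of the rest and are therefore too narrow. Arms were compared by a two-sided exact sign-flip permutation test. Members, lists and tests were chosen with earlier results of these data known. Classes of strength and peak width limits were chosen after seeing the data. Named peaks are, per end and list, the strongest, innermost, widest and limit-adjacent peaks, the 5 strongest, the 5 best-ranked pairs, the 3 strongest unshared peaks without a summit of the other protein within 1000 bp, the longest gap and the densest 100 kb. No dm3 sequence or annotation was used, so peaks are given by position and not by gene. Python 3.11.15, scipy 1.17.1, pandas 2.3.3 and numpy 2.4.6 were used, and scripts were tested on simulated data.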

Additional observations from a re-analysis of the deposited data

How the results depend on the processing

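No paired analysis was possible because no column of either list belongs to a particular sample, and no sample could be left out. Of 101 recalculations of the 10 contrasts between ends and rest, 75 stayed within the counting interval of the value reported and 26 did not; the cause was not tested. The ROW density ratio, 1.07, became 0.89 with −log10 q of at least 10, 0.82 with at least 4-fold, 1.19 with limits 500 kb closer to the centromere, 0.95 without arm 2L and 1.18 without arm 3L. The BEAF-32 ratio, 1.00, became 0.86 with at least 4-fold and 1.14 without 3L. The log2 ROW strength difference, −0.43, became −0.15 with −log10 q of at least 10, −0.073 with at least 4-fold, −0.30 without 3L, −0.64 without 3R, −1.06 with −log10 q in place of fold and −0.70 among peaks of middle width; floors on strength remove the weak peaks by construction. That of BEAF-32, −0.61, became −0.85 against the neighbouring 5 Mb and −1.08 with −log10 q in place of fold. The ROW width difference, 67.5 bp, became 119 bp with −log10 q of at least 10, and that of BEAF-32, 31 bp, became 57 bp with at least 4-fold. The difference in the shared ROW share, −2.37 percentage points, became 6.47 with −log10 q of at least 10, 10.7 with at least 4-fold, 11.7 between the quartiles of fold and −6.73 with overlaps covering 50% of both intervals or more. For BEAF-32, 3.36 points became 9.38, 10.6, 7.40 and −8.60 under the same settings, and −5.59 with summits at most 100 bp apart. The ratio of ROW to BEAF-32 peaks and the summit distance stayed within their intervals in all their recalculations.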

Other observations

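The centromere-near ends of 2R and X lie outside the rule and were looked at after the data had been seen, as the 2.5 Mb next to the innermost peak. The end of 2R looked like those of 2L and 3L. Its 200 ROW peaks had a median of 2.87-fold (2.53 to 3.31) against 4.25-fold (3.99 to 4.59) in the rest of 2R. Its 106 BEAF-32 peaks had 4.37-fold (3.57 to 6.51) against 8.69-fold (7.58 to 9.71). Weak ROW peaks under 3-fold were 52.5% of the end and 30.7% of the rest, and median ROW width was 659.5 bp against 579 bp. The share of BEAF-32 peaks of at least 16-fold was 12.3% against 31.9%.

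The end of X differed from these in both strength and number. Its 91 ROW peaks stood at 36.4 per Mb against 63.1 per Mb in the rest of X, a ratio of 0.58 (0.46 to 0.71), and its 49 BEAF-32 peaks gave a ratio of 0.54 (0.39 to 0.72). Their medians were 4.84-fold for ROW against 4.67-fold, and 13.6-fold for BEAF-32 (5.98 to 19.5) against 10.3-fold (8.46 to 11.7). BEAF-32 peaks there overlapped ROW in 87.8% of cases (75.8 to 94.3) against 71.8% (68.4 to 74.95) in the rest of X. No test over arms was run on these ends.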
